A study of Mus musculus with 4 samples.

Results

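Basal keratinocytes are the inner cell layer of the epidermis. The 1745 cells described here came from 4 single-cell RNA libraries of mouse digits, among 39266 cells that passed the filter and 3525 non-cycling keratinocytes. They were chosen by their transcripts. A cell had at least 500 genes, at least 1000 unique molecular identifiers (UMIs, 1 per captured transcript) and at most 10% mitochondrial UMIs. It had no UMI of Ptprc or Cdh5, at least 20 UMIs of Krt5, Krt14, Krt1 and Krt10 together and fewer than 4 of Mki67, Top2a and Cenpf together. It also had at least 3 UMIs of Col17a1, Fras1 and Wnt3 together, and more of these than of suprabasal genes (Krt2, Dsc1, Cst6 and Serpinb12), follicle genes (Lhx2, Shisa2 and Grm8) or hair matrix genes (Krt35, Krt25 and Krt28). The rule therefore used measured values, and the levels of these 22 genes are given only as a description.

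All groups were wild-type FVB/NJ mice of 8 weeks, males and females pooled per the labels, and none carried a transgene or received a drug. One library came from unamputated digit tissue, and 1 each came from tissue 12, 17 and 28 days post-amputation (dpa) through the middle phalanx (P2), a level at which the digit scars and does not regrow. The tissue was digested with trypsin and collagenase I, and live cells were sorted by exclusion of propidium iodide. Each group held 1 library, so no difference has a replicate check, no test was made, and every interval below covers counting error only.

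Basal keratinocytes sit on the basement membrane and renew the epidermis. They hold on to it through hemidesmosomes, in which integrin α6β4, collagen XVII, plectin and dystonin join keratin 5 and keratin 14 filaments to laminin-332 and collagen VII. When skin is wounded, keratinocytes at the edge switch on keratins 6, 16 and 17 and alarmins, loosen their anchorage and migrate. Cells that leave the basal layer lose these anchors and make keratins 1 and 10.

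In the order unamputated, 12, 17 and 28 dpa, which is kept throughout, the libraries gave 569, 234, 292 and 650 basal keratinocytes. These were 49.8% (95% Clopper-Pearson interval 46.8 to 52.7), 52.2% (47.5 to 56.9), 55.7% (51.4 to 60.0) and 46.1% (43.5 to 48.7) of the non-cycling keratinocytes. The share is set by the rule and by depth, since a shallow cell reaches 3 UMIs less often. With each cell thinned to 5000 UMIs and the rule applied again, the shares were 45.9%, 47.2%, 50.7% and 42.6%. The 28 dpa library had the lowest share of keratinocytes both ways. Of all filtered cells, however, basal keratinocytes were 4.76% (4.39 to 5.16), 3.37% (2.96 to 3.82), 3.36% (2.99 to 3.76) and 5.57% (5.16 to 5.998), with the 28 dpa library the highest. Cells just inside the threshold, with 3 UMIs of the basal genes, numbered 72, cells just outside it with 2 UMIs numbered 73, and 44 more were left out because another gene group tied. A further 830 basal cells were set aside as cycling, which was 32.0%, 30.4%, 33.0% and 32.7% of all basal cells in the 4 libraries. After thinning, that share was 18.2% (15.3 to 21.5), 19.4% (14.6 to 24.8), 21.0% (16.8 to 25.8) and 28.2% (24.9 to 31.6).

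Depth per cell was lower in each later library. The basal keratinocytes had medians of 16822, 13686, 11097 and 8618 UMIs and 4430, 3678, 3407 and 2858 genes per cell, and they summed to 10303783, 3413477, 3634466 and 6237847 UMIs. Levels below are CPM, a gene's UMIs with each of these sums scaled to 1000000, which are per molecule and not per length, because only 3′ ends were captured. Log2 ratios were computed on CPM + 1, which understates the change of genes with low counts. The libraries also differed in sex, although the labels give pooled sexes. Cells with Y-linked UMIs and no Xist made up 534, 0, 206 and 417 of the basal keratinocytes, and cells of the opposite kind 0, 184, 0 and 0, so that time after amputation and sex cannot be told apart at 12 dpa. No barcode belonged to basal keratinocytes of more than 1 library.

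Some of these barcodes also held RNA of other lineages. Fibroblast transcripts (Col1a1, Col1a2, Col3a1, Dcn and Lum) had medians of 175, 463, 469.8 and 583 CPM in single basal keratinocytes, and the 5% of cells with the most held 93.7%, 80.7%, 84.4% and 81.5% of all such UMIs. Barcodes in which mesenchymal genes made up at least 0.3% of UMIs or immune genes at least 0.1% are called mixed below. They numbered 46, 20, 37 and 84, or 8.08%, 8.55%, 12.7% and 12.9%. Scrublet, which scores doublets, marked 43, 16, 31 and 74 of them. Summed over a list of 10 fibroblast markers, none of which was at 0, the level was 3799, 2489, 5759 and 3834 CPM. A list of 16 immune markers summed to 65.9, 93.7, 149 and 256 CPM, with the T cell genes Cd3e and Cd3g at 0 in all 4 libraries. The T cell receptor gene Trbc2 of the same list was not at 0, at 22.4, 44.8, 29.4 and 36.9 CPM. The endothelial, melanocyte and Merkel cell lists each summed to 42.4 CPM or less, and Krt20, Atoh1, Isl1 and Chga, which define Merkel cells, were at 0 throughout. Schwann and mural cell markers summed to between 164 and 361 CPM. Many of the results that change without the mixed barcodes are given both ways.

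**Figure D1:**
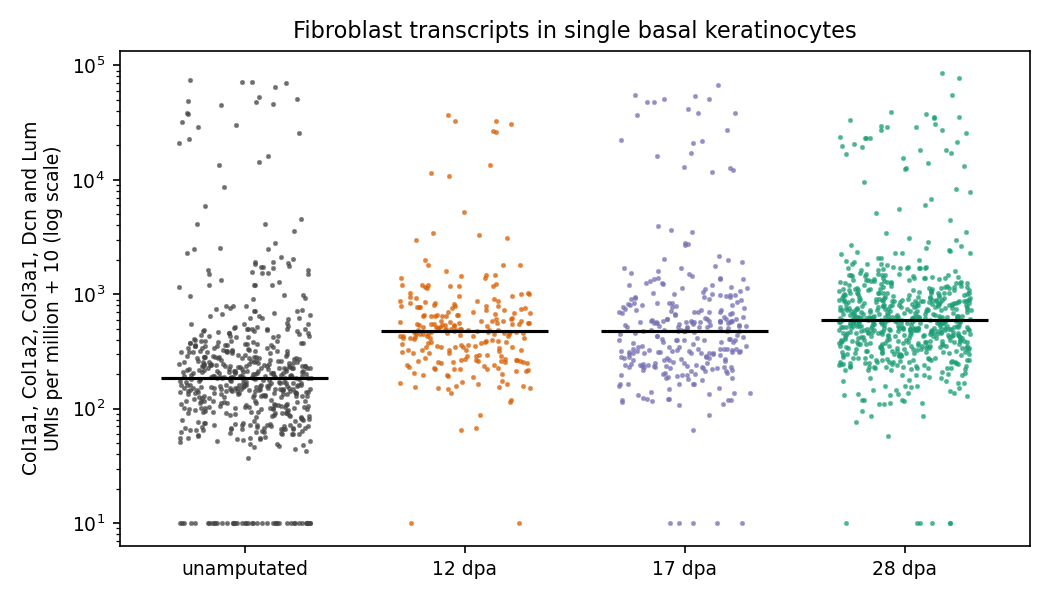
Each point is 1 basal keratinocyte, the y axis gives its UMIs of 5 fibroblast genes in CPM plus 10 on a log scale, and lines mark medians. A separate upper cloud of cells, present in every library, held most of these UMIs, and the median was 175 CPM in the unamputated library and 463 to 583 CPM in the others.

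The defining markers of basal keratinocytes were present, as the rule requires for most of them. Krt14 stood at 9609.7, 11732, 10246 and 12120.4 CPM and Krt5, its partner in the basal filament, at 4726, 4368, 5356 and 5101 CPM. Col17a1, the hemidesmosomal collagen, stood at 1056, 938, 919 and 1036 CPM, against 85.6, 28.9, 84.1 and 103 CPM in the suprabasal keratinocytes picked by the same scheme. Fras1, which belongs to the Fraser complex of the basement membrane, was at 407, 420.4, 192 and 249 CPM, and the ligand gene Wnt3 at 44.5, 65.6, 55.6 and 38.8 CPM. Krt14, Krt5 and Col17a1 varied least, and Fras1 was lowest at 17 dpa. Krt2 was at 50.3, 13.2, 35.8 and 57.2 CPM against 3695, 1668, 3966 and 5614 CPM in suprabasal cells. Krt1 and Krt10, which count toward the keratin minimum in any mix, were not absent, at 1689, 2337, 1541 and 1026 CPM and 1331, 1737, 1382 and 1194 CPM.

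Beyond the genes of the rule, 20 of 23 anchoring genes of at least 5 CPM stood higher in basal than in suprabasal cells in all 4 libraries, and 26 of 27 differentiation genes stood lower in all 4. These contrasts follow from how the cells were picked and are no test. Itgb4, the β4 integrin of the hemidesmosome, stood at 273, 207, 177 and 214 CPM in basal and 16.1, 6.56, 19.4 and 18.9 CPM in suprabasal cells. Lamb3, a chain of laminin-332, stood at 155, 140.0, 119 and 122 against 5.71, 8.74, 10.7 and 5.44 CPM. Trp63, the master transcription factor of stratified epithelia, was less divided, at 694, 601, 508 and 441 against 366, 339, 342 and 286 CPM. The desmosomal and adherens junction genes leaned the other way, with 4 of 20 higher and 14 lower in basal cells in every library.

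Relative to unamputated skin, few genes of basal keratinocytes stood 2-fold or more apart. Of 7020 genes that reached 20 CPM in either library, 37 were higher at 12 dpa, or 0.527%, and 173 were lower, or 2.46%. At 17 dpa 63 of 7082 genes were higher (0.89%) and 55 lower (0.777%). At 28 dpa 100 of 7099 genes were higher (1.41%) and 2.99% lower. Without the mixed barcodes the counts were 44 and 200 at 12 dpa, 26 and 84 at 17 dpa, and 57 and 258 at 28 dpa. Of the genes called higher, 30 of 37, 19 of 63 and 41 of 100 were called again without these barcodes. Of those called lower, 147 of 173, 45 of 55 and, at 28 dpa, 186 were called again. The lower genes thus rested less on the mixed barcodes than the higher ones at 17 and 28 dpa. With each ratio centred on the median of all genes, the higher and lower counts were 65 and 126 at 12 dpa, 103 and 30 at 17 dpa, and 189 and 99 at 28 dpa. The 3 comparisons share the unamputated library, so a low or high value there enters each of them.

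The median over the 11148 genes of at least 5 CPM in any library was -0.17, -0.15 and -0.19 at 12, 17 and 28 dpa. Log2 ratios also moved with the span of a gene in the genome. Quartiles of span were taken over a smaller set, nuclear genes of known position with a mean of at least 20 CPM over the libraries. Among the 1654 genes of the shortest span the median log2 ratio was 0.04, 0.12 and 0.22. Among the 1654 of the longest, from 79327 bases on, it was -0.26, -0.39 and -0.57. Long genes were therefore lower as a whole in each dpa library, most at 28 dpa. The depth per cell was also lowest at 28 dpa, and whether intronic reads were counted is not given in the sources used here. The part of either in the results was not tested, and values centred on genes of like span are given where they change a statement.

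**Figure D2:**
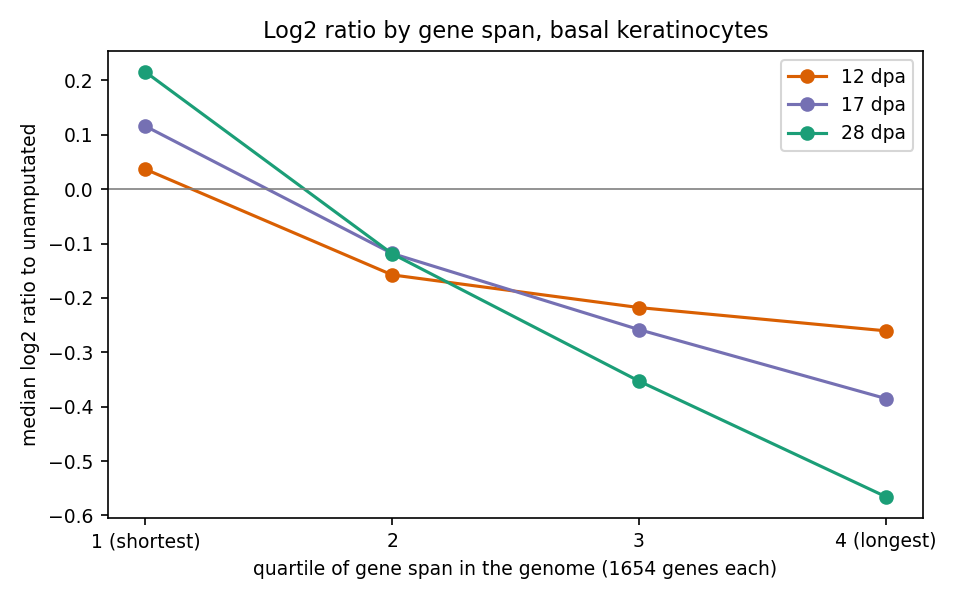
The y axis gives the median log2 ratio of CPM to the unamputated library in basal keratinocytes, and the x axis the quartile of gene span, with 1 line per dpa library. All 3 lines fall from left to right, and the 28 dpa line falls from 0.22 to -0.57.

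Listed genes that anchor the basal layer were within 2-fold of the unamputated level at 12 and 17 dpa. The list leaves out the genes of the rule, of which Fras1 had a log2 ratio of -1.08 at 17 dpa. Of 24 listed genes 23 reached 5 CPM, and their median log2 ratio was -0.26, -0.35 and -0.28 at 12, 17 and 28 dpa, close to that of all genes. Of the 22, 23 and 22 genes that could be called, 0 were 2-fold higher or lower at 12 and 17 dpa, and 3, among them Frem2 and Grip1, were lower at 28 dpa. Over all tested genes 0.527%, 0.89% and 1.41% were higher and 2.46%, 0.777% and 2.99% lower, so that 0 calls among this many genes was near the share of all genes. None of the 3 stayed past 2-fold in every one of 3 checks, which left out the cell with most UMIs of the gene in each library, left out mixed barcodes, or centred the ratio by span. Most single genes were somewhat lower, with 19, 20 and 18 of 23 below the unamputated value, where 31.8%, 34.9% and 34.4% of all genes were above it. Centred on genes of like span, the medians became -0.13, -0.0048 and 0.078. Centred on all genes they were -0.094, -0.16 and -0.048.

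Genes of the hemidesmosome core differed little between libraries. Itga6, the α6 integrin that pairs with β4, stood at 752, 579, 519 and 504 CPM, with log2 ratios of -0.38, -0.53 and -0.58. Dst, which encodes dystonin, stood at 1011, 705, 873 and 832 CPM. Plec, which encodes plectin, was nearly level at 286, 243, 283 and 277 CPM, as was Lama5, a chain of laminin-511, at 44.7, 48.9, 44.8 and 45.0 CPM. Col7a1, the anchoring fibril collagen, stood at 124, 173, 95.2 and 81.3 CPM, highest at 12 dpa.

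Lama3, the α3 chain of laminin-332, stood at 395, 287, 214 and 212.4 CPM, and its log2 ratio at 28 dpa was -0.89. Lamb3, the β3 chain given above, was closer to its unamputated level, with ratios of -0.14, -0.37 and -0.34.

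The genes of the Fraser complex, which fixes the embryonic epidermis to the dermis, were chosen for description after their values had been seen. Grip1, whose product carries this complex to the cell base, was among the most abundant of all anchoring genes, at 892, 988, 511 and 371 CPM. Its 17 and 28 dpa levels lay below the unamputated and 12 dpa levels, with a log2 ratio of -1.26 (95% counting interval -1.33 to -1.20) at 28 dpa. In suprabasal keratinocytes too the 17 and 28 dpa levels were the lower ones, at 897, 828, 465 and 360.5 CPM. Frem2, another member, stood at 23.5, 14.1, 15.96 and 8.98 CPM, and Frem1 was at or under 1.28 CPM in every library. Grip1 spans 633432 bases, and centred on genes of like span its log2 ratios were 0.44, -0.37 and -0.61. The 28 dpa difference was then no longer past 2-fold.

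**Figure D3:**
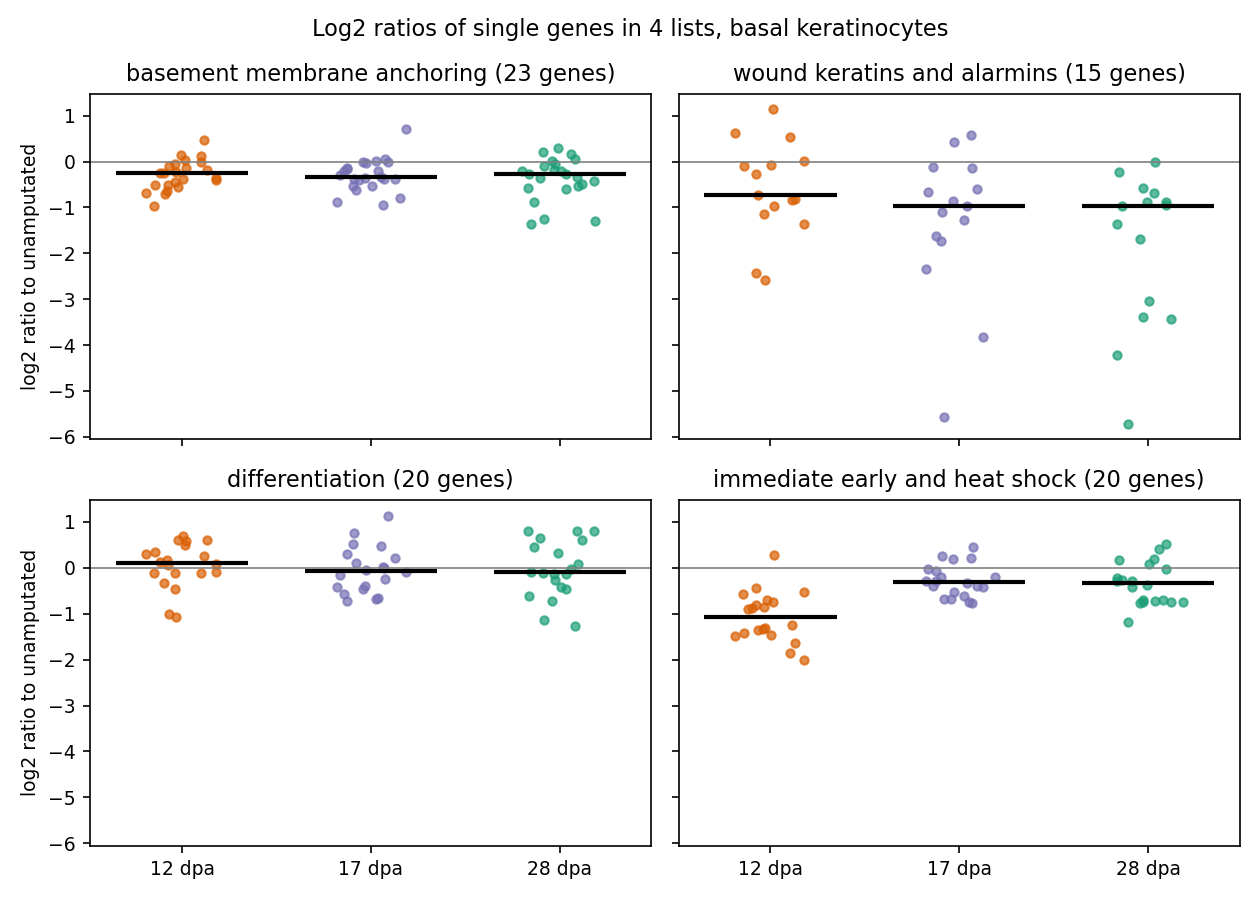
Each point is 1 gene of the named list with at least 5 CPM in any library, the y axis gives its log2 ratio of CPM to the unamputated library, and lines mark the medians at 12, 17 and 28 dpa. The anchoring and differentiation genes cluster around 0, the immediate early genes lie lowest at 12 dpa, and single wound genes reach below -5.

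Krt6a, Krt6b and Krt16 had no higher summed level in basal keratinocytes of any dpa library than in the unamputated one, and Krt17 an equal one at most. Of 25 genes in the list 15 reached 5 CPM, with medians of -0.73, -0.98 and -0.97. Of 12, 12 and 11 genes that could be called, 1, 0 and 0 were higher and 4, 6 and 7 lower, where 2.46%, 0.777% and 2.99% of all tested genes were lower. The higher gene was the stefin Stfa3. The 4 lower at 12 dpa were Krt6b, S100a8, S100a9 and Gjb2. These calls are not read as a change across basal keratinocytes. S100a8 and S100a9 had unamputated shares of cells like those of fibroblasts, and 1 cell gave 76.9% of the unamputated Krt6b UMIs. The top 5% of unamputated cells held 93.6% of the Gjb2 UMIs, and outside them Gjb2 stood at 3.98, 7.32, 1.38 and 0 CPM. Some calls stayed past 2-fold under the 3 checks given above for anchoring genes. These were Gjb2 at 17 dpa, Krt6a and Krt16 at 17 and 28 dpa and Stfa3 at 28 dpa. The calls of S100a8 and S100a9 stayed at 12 and 28 dpa. Suprabasal keratinocytes differed at 12 dpa, where the median of the same list was 0.63, against -0.12 and -0.63 at 17 and 28 dpa.

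Krt6a, a keratin of activated epidermis (chr15:101689910-101694307, minus strand, in the mm10 build), stood at 530.3, 500.4, 159 and 205 CPM in basal cells. The unamputated and 12 dpa levels were close, and both lay above those of 17 and 28 dpa, where the log2 ratios were -1.73 and -1.37. The unamputated level, however, came from few cells. The 5% of cells with the most Krt6a held 78.2, 41.9, 51.6 and 43.5% of its UMIs, and outside them the levels were 116, 291, 77.0 and 116 CPM. Outside these cells 12 dpa was the highest library, and 28 dpa equalled the unamputated one. After thinning, Krt6a was detected in 34.3% (30.4 to 38.4), 57.8% (51.2 to 64.3), 28.7% (23.4 to 34.4) and 34.9% (30.9 to 38.9) of basal keratinocytes, and in 49.9, 71.8, 40.8 and 44.0% before thinning. Because the share and the summed level put the unamputated and 12 dpa libraries in different orders, no order of these is drawn from the share. The fibroblasts of the same libraries, which should lack the gene, had shares of 1.18, 1.66, 0.764 and 1.72% at the same depth, with unthinned medians of 16011, 12927, 10789 and 7677 UMIs per cell.

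Krt16, the usual partner of keratin 6, was far more confined. It stood at 196, 183, 12.9 and 17.3 CPM (chr11:100246091-100248902, minus strand), and its log2 ratios at 17 and 28 dpa were -3.82 (95% counting interval -4.37 to -3.50) and -3.42 (95% counting interval -3.79 to -3.22). Here 98.3, 83.6, 87.2 and 91.7% of the UMIs lay in the top 5% of cells, and outside them the levels were 3.30, 29.9, 1.65 and 1.44 CPM. After thinning, 4.67% (3.07 to 6.76), 19.1% (14.3 to 24.8), 4.66% (2.50 to 7.84) and 5.25% (3.57 to 7.42) of basal cells had a Krt16 UMI, against 0.795, 1.12, 0.286 and 0.564% of fibroblasts. In suprabasal cells the level was 249, 1257, 247 and 124 CPM and the thinned share 14.4, 37.0, 11.0 and 12.1%, so that there both measures were highest at 12 dpa.

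Krt17, a keratin of wound edges and of hair follicles, stood at 619, 619.9, 389 and 383 CPM. The unamputated and 12 dpa levels were alike and the later ones lower. Krt6b stood at 59.8, 22.6, 0.275 and 0.16 CPM, but 1 cell gave 76.9% of the unamputated UMIs and 1 cell 87.0% of those at 12 dpa. Krt6a and Krt6b are near-identical copies, as Krt16 and Krt17 are close relatives, and how reads were split between them cannot be checked here. Gjb2, the gap junction protein connexin 26, stood at 62.2, 27.5, 11.6 and 31.3 CPM, lowest at 17 dpa. Serpinb2, a protease inhibitor of the epidermis, stood at 137, 76.2, 124 and 136 CPM. The alarmin S100a8 stood at 29.7, 4.69, 14.6 and 0.641 CPM, and a UMI of it was found in 9.87%, 1.30%, 8.24% and 0.35% of thinned basal cells. In fibroblasts of the same libraries that share was 8.68, 1.00, 8.15 and 0.498%, which puts the basal value at background. For S100a9 the shares were 9.16, 1.74, 7.89 and 1.05% of basal cells and 10.3, 0.693, 11.0 and 1.09% of fibroblasts. The beta-defensins Defb3 and Defb4 had 0 UMIs, and a count of 0, taken as under 3 counts, allows up to 0.291, 0.879, 0.825 and 0.481 CPM in the 4 libraries.

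**Figure D4:**
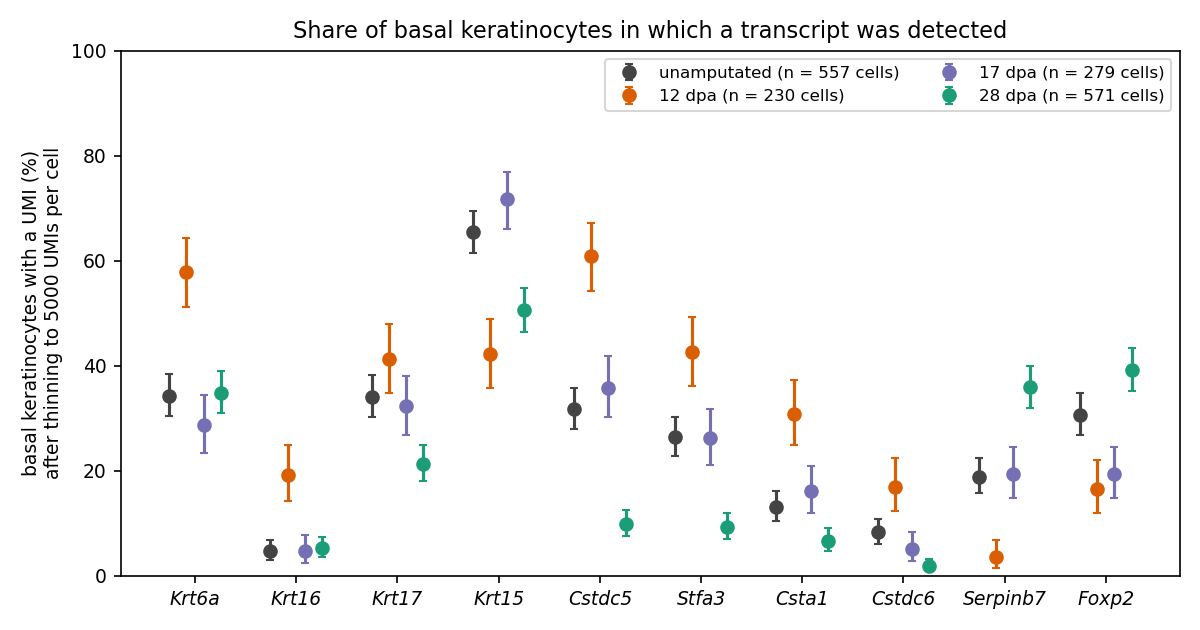
Points give the percent of basal keratinocytes with at least 1 UMI of each gene after thinning to 5000 UMIs per cell, by library, and bars are 95% Clopper-Pearson intervals. The shares of the 4 stefin genes are highest at 12 dpa and lowest at 28 dpa, and those of Krt15 and Serpinb7 are lowest at 12 dpa. For Krt6a and Krt16 the share and the summed level order the unamputated and 12 dpa libraries differently.

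A wide difference between libraries was seen in the stefin A genes, a mouse cluster on chromosome 16 that encodes inhibitors of lysosomal cysteine proteases such as cathepsins. The cluster was singled out after its values had been seen, and its members are near-identical copies whose reads may be shared between them. Of 8 genes, Cstdc5 (chr16:36359382-36367748, minus strand), Stfa3 (chr16:36450537-36455392, minus strand), Csta1 (chr16:36119946-36131241, minus strand) and Cstdc6 (chr16:36321665-36334332, minus strand) reached 5 CPM in basal keratinocytes. Cstdc4, Stfa1, Stfa2 and Stfa2l1 stayed at or under 2.93 CPM. The bases just before the annotated start of 5 of these genes are printed because expressed and nearly silent copies lie side by side with much of the same sequence. They are 100 bases each from RefSeq (GRCm38.p6), with the letters TTTAAA in capitals, a TATA-like run. Csta1 has no such run in the stretch shown. The gene models of the files' annotation start further upstream for Cstdc5, Csta1 and Stfa1, so their stretches lie wholly or partly inside those models.
Cstdc5 (chr16:36367571-36367670, minus strand): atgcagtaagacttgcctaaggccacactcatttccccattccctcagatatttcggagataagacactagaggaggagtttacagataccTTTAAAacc
Stfa3 (chr16:36455393-36455492, minus strand): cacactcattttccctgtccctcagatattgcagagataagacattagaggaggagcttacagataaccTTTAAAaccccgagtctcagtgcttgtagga
Csta1 (chr16:36131190-36131289, minus strand): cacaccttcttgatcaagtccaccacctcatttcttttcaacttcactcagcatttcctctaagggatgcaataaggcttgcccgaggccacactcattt
Stfa1 (chr16:36277048-36277147, plus strand): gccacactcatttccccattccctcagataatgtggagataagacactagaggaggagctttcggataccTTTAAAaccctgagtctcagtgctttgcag
Stfa2l1 (chr16:36156711-36156810, plus strand): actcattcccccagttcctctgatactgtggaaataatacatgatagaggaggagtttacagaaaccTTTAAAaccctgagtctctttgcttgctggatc

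The run TTTAAA began 9 bases before the start of Cstdc5, 31 before Stfa3, 30 before Stfa1 and 33 before Stfa2l1, and 230 before Csta1. It occurs on either strand in 12.1% of the 32851 RefSeq promoters over the 250 bases before the start. The run GGAGGAG, found on either strand in 15.1% of them, lay nearest at 28, 51, 134, 49 and 52 bases before the start in the 5 genes, in the order printed. The AP-1 letters TGANTCA, found in 6.75% of promoters on either strand, were not in the 250 bases before any of the 7 stefin genes matched to RefSeq, and no more is drawn from that. Cstdc6 was not matched. Copies that were detected and copies that were nearly silent held both runs.

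Cstdc5 was the most abundant stefin, at 815, 2215, 587 and 40.7 CPM. It was highest at 12 dpa, near the unamputated level at 17 dpa and lowest at 28 dpa. Its log2 ratio was 1.44 (95% counting interval 1.40 to 1.49) at 12 dpa and -4.29 (95% counting interval -4.51 to -4.14) at 28 dpa. Stfa3 stood at 222, 491, 204 and 26.0 CPM, in the same order. Csta1 stood at 56.7, 215, 42.1 and 15.7 CPM and Cstdc6 at 35.9, 88.5, 15.7 and 4.01 CPM. All 4 were past 2-fold higher at 12 dpa, where 0.527% of tested genes were, and past 2-fold lower at 28 dpa, where 2.99% were. Being chosen for these values, they are a description.

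All 4 stefins were highest at 12 dpa and lowest at 28 dpa also outside the cells with most UMIs and without mixed barcodes. Outside the top 5% of cells, Cstdc5 stood at 329.7, 1292, 300.2 and 8.98 CPM and Stfa3 at 95.1, 269, 101 and 6.25 CPM, with the unamputated and 17 dpa levels of Stfa3 in the other order than in the sums. Without mixed barcodes the levels of Cstdc5 were 865, 2457, 685 and 46.3 CPM and those of Stfa3 239.8, 515, 243 and 29.6 CPM. Centred on genes of like span, the 12 dpa ratio of Stfa3 was 0.97, just under 2-fold. After thinning, 42.0% (37.9 to 46.2), 69.6% (63.2 to 75.4), 46.6% (40.6 to 52.6) and 20.1% (16.9 to 23.7) of basal cells had a stefin UMI. Cells with at least 10 stefin UMIs of their 5000 made up 14.2%, 32.2%, 12.9% and 0.35%. Both the share of cells with these transcripts and their number per cell were therefore lowest at 28 dpa. In fibroblasts the thinned share for Cstdc5 was 2.15, 3.54, 1.08 and 0.431%. Suprabasal keratinocytes had more of the transcripts in the same order, with Cstdc5 at 1269, 3896, 1074 and 205 CPM and Stfa3 at 396, 886, 364 and 79.6 CPM.

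**Figure D5:**
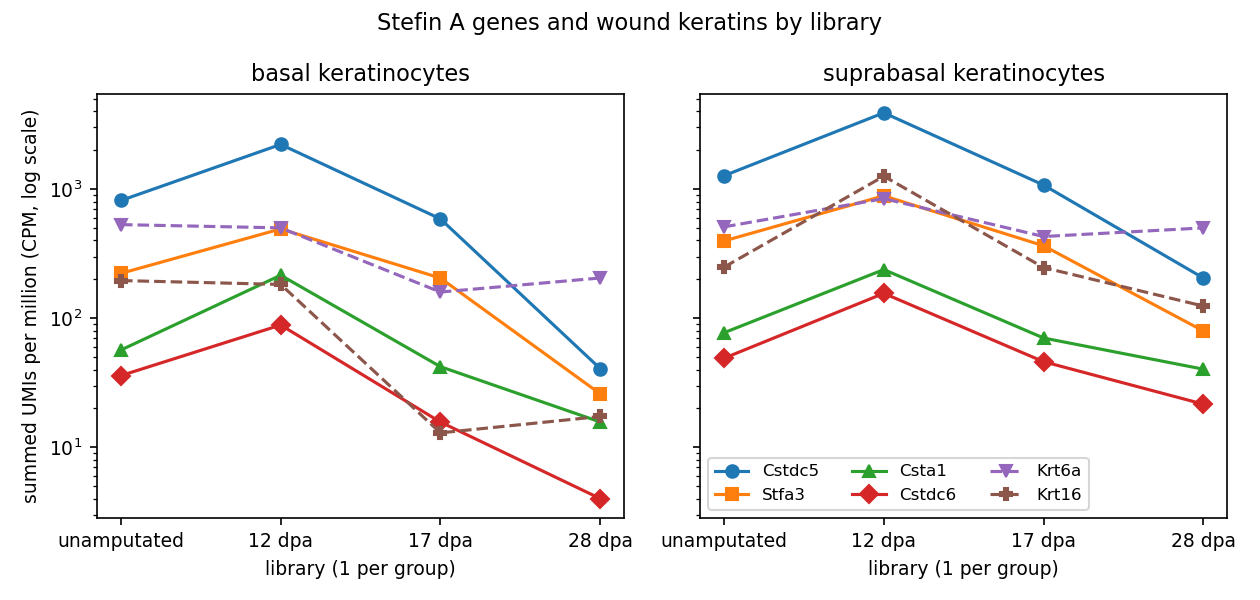
Levels in CPM (log scale) of 4 stefin A genes (solid lines) and 2 wound keratins (dashed lines) in basal (left) and suprabasal (right) keratinocytes, 1 point per library. The stefins peak at 12 dpa and are lowest at 28 dpa in both cell groups, while Krt16 is highest at 12 dpa in suprabasal cells and not in basal cells.

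The genes named for the 12 dpa comparison were the 8 highest and 8 lowest log2 ratios among genes of at least 50 CPM. Those higher, besides Csta1, Cstdc5 and Cstdc6, included Fabp5, a fatty acid carrier of keratinocytes, at 547, 1867, 262 and 388 CPM. It was highest at 12 dpa in suprabasal cells too, at 5617, 12635, 6246 and 7462 CPM. Ctsc, which encodes cathepsin C, stood at 81.8, 289.7, 54.8 and 41.7 CPM. Tspear, a gene of ectodermal appendages, stood at 308, 826, 187 and 109 CPM, with 24.6, 88.3, 42.4 and 9.25 CPM in suprabasal cells. Its 12 dpa level was the highest in both. Cdk8 stood at 412, 1344, 877 and 419.5 CPM, and since fibroblasts held 338, 1056, 715 and 351 CPM, the 12 dpa level was the highest in both. Tmem117 stood at 22.5, 69.7, 22.0 and 15.4 CPM.

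The gene with the lowest ratio at 12 dpa was Serpinb7, a serine protease inhibitor of the epidermis, at 70.4, 7.03, 60.3 and 116 CPM. Its log2 ratio was -3.15 (95% counting interval -3.97 to -2.74), and the 17 and 28 dpa levels lay near or above the unamputated one. After thinning, 18.9% (15.7 to 22.4), 3.48% (1.51 to 6.74), 19.4% (14.9 to 24.5) and 35.9% (32.0 to 40.0) of basal cells had a UMI of it, against 0, 0.0385, 0.0637 and 0.365% of fibroblasts. Prlr, the prolactin receptor, stood at 129.9, 23.4, 85.6 and 91.7 CPM and was detected in 32.3, 9.13, 26.5 and 31.9% of thinned cells, again lowest at 12 dpa, against 1.97, 0.655, 0.541 and 1.03% of fibroblasts. Scel, which encodes sciellin of the cornified envelope, stood at 62.9, 10.8, 49.8 and 26.6 CPM, and Tmem45a at 77.9, 20.2, 91.1 and 117 CPM. Fosb stood at 51.5, 12.0, 31.9 and 22.1 CPM. Nkain3 (55.1, 14.4, 19.5 and 23.4 CPM), Trabd2b (69.7, 17.3, 30.0 and 30.3 CPM) and the muscarinic receptor gene Chrm3 (54.1, 6.74, 37.4 and 23.9 CPM) completed the list. All 16 genes stayed past 2-fold without mixed barcodes. Chrm3 turned to a log2 ratio of 0.82, between levels near 0, without the appendage-leaning cells described at the end. Since all cells called for sex were female at 12 dpa and male elsewhere, sex cannot be told apart from time in any of these.

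Of the 8 named lower genes at 17 dpa, Krt6b, Krt16, Gjb2 and Krt6a belonged to the wound list, and Odc1, Nkain3, Eno1 and Erh did not. Odc1, the first enzyme of polyamine synthesis, stood at 60.6, 31.1, 17.6 and 14.4 CPM, Eno1, the glycolytic enolase, at 136, 77.3, 51.7 and 78.1 CPM, and Erh at 99.6, 52.1, 40.4 and 57.6 CPM. Eno1 and Erh were also lowest at 17 dpa in fibroblasts, at 95.4, 67.1, 32.6 and 56.1 CPM and 76.2, 39.7, 27.8 and 34.9 CPM.

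Most named higher genes at 17 dpa are known from bone and connective tissue cells. Ibsp, a bone matrix protein, stood at 1.75, 0.879, 477 and 30.8 CPM, and 1 cell gave 51.4% of the 17 dpa UMIs. Spp1, which encodes osteopontin, stood at 19.9, 2.93, 436 and 82.4 CPM, with 60.0% in 1 cell. Mmp13 stood at 47.3, 24.9, 209 and 20.7 CPM, Timp1 at 14.9, 42.2, 98.0 and 33.0 CPM and Tm4sf1 at 29.2, 24.3, 96.9 and 86.7 CPM. Without mixed barcodes Spp1, Timp1, Mmp13 and Tm4sf1 were no longer past 2-fold, and Ibsp stood at 0.889, 0.662, 5.44 and 3.10 CPM. Serping1 stood at 14.8, 14.4, 73.2 and 45.8 CPM. S100a4 stood at 151, 209, 504 and 827 CPM and without mixed barcodes at 52.7, 46.7, 143 and 241 CPM. The processed pseudogene Rpl9-ps6 stood at 24.9, 38.1, 77.3 and 71.7 CPM, with a like order in fibroblasts at 12.8, 22.1, 41.1 and 39.6 CPM.

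At 28 dpa the named lower genes were Krt6b, Cstdc5, Krt16, Stfa3, Adamts18, Adamtsl1, Taco1 and Gm49890. Adamts18, a secreted metalloprotease, stood at 66.6, 37.2, 28.6 and 11.9 CPM. Adamtsl1, a protease-like matrix protein, stood at 122, 65.0, 86.1 and 23.7 CPM, and its 28 dpa level was the lowest. Taco1, which acts in mitochondrial translation, stood at 58.2, 34.3, 25.6 and 11.9 CPM, in the same order as in fibroblasts at 20.4, 13.4, 11.6 and 6.51 CPM. Gm49890 stood at 120.1, 259, 71.8 and 26.8 CPM, an order close to that of the stefins.

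The higher genes at 28 dpa were Prg4, Ccn3, Aqp1, Dbp, S100a4, Tnxb, Igfbp6 and Fn1, and all but Dbp had far higher levels in fibroblasts. Fn1, which encodes fibronectin, stood at 114, 137, 267 and 506 CPM in basal cells, 112, 144, 378 and 500.2 CPM in suprabasal cells and 2208, 2131, 3268 and 4936 CPM in fibroblasts. Without mixed barcodes it stood at 8.89, 20.8, 27.2 and 82.1 CPM in basal cells. Igfbp6, which binds insulin-like growth factors, stood at 55.5, 55.1, 127 and 272 CPM and without mixed barcodes at 35.02, 34.1, 44.9 and 105 CPM. Both were highest at 28 dpa either way. The median of fibroblast transcripts per basal cell was also highest there, at 583 CPM, and its part in these levels was not tested. Aqp1 stood at 13.5, 18.7, 51.2 and 114 CPM, Ccn3 at 8.73, 13.5, 35.2 and 79.2 CPM and Tnxb at 11.4, 8.50, 49.8 and 65.2 CPM. Prg4 stood at 0.0971, 1.76, 12.9 and 70.4 CPM, and 79.7% of its 28 dpa UMIs came from 1 cell.

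Dbp, a transcription factor of the circadian clock, stood at 10.3, 30.5, 28.9 and 64.1 CPM, and fibroblasts had a like order at 14.9, 51.4, 31.2 and 100.2 CPM. In thinned basal cells it was detected in 4.13% (2.64 to 6.13), 13.0% (8.98 to 18.1), 12.5% (8.90 to 17.0) and 27.8% (24.2 to 31.7). Its log2 ratio was past 2-fold higher in all 3 dpa libraries and stayed so without mixed barcodes, at 1.56, 1.46 and 2.44. Timp1 was also past 2-fold in all 3, but its ratios without mixed barcodes were 1.04, 0.23 and 0.86. Among genes of at least 50 CPM, Krt6b, Fst, Nkain3, Trabd2b, Slc23a2 and Cyp7b1 had ratios past 2-fold lower in all 3. Each of these calls was lost in at least 1 library under some alternative. The ratio nearest to 0 or beyond it was -0.33 for Krt6b at 12 dpa, -0.81 for Fst at 17 dpa and 0.38 for Nkain3 at 28 dpa. It was -0.47 for Trabd2b and -0.36 for Slc23a2 at 28 dpa, and -0.71 for Cyp7b1 at 12 dpa. Slc23a2, a vitamin C transporter, stood at 62.0, 26.4, 28.1 and 29.2 CPM, and Cyp7b1, an oxysterol hydroxylase, at 66.2, 32.5, 27.2 and 15.6 CPM. These comparisons share 1 control library.

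Between 17 and 28 dpa, a comparison that does not use the unamputated library, 25 of 6828 genes were 2-fold higher (0.366%) and 69 lower (1.01%). Cstdc5 had a log2 ratio of -3.82 (95% counting interval -4.04 to -3.66) and Stfa3 one of -2.93 (95% counting interval -3.23 to -2.73). Adamtsl1, Ibsp, Spp1, Mmp13, Igf1 and Timp1 were also among the lowest 8. Without mixed barcodes the ratios of Spp1, Igf1 and Timp1 were 0.99, 0.20 and 0.64. Foxp2, a forkhead factor, was among the highest, at 151, 52.7, 63.0 and 174 CPM, and was detected in 30.7% (26.9 to 34.7), 16.5% (12.0 to 22.0), 19.4% (14.9 to 24.5) and 39.2% (35.2 to 43.4) of thinned cells, against 6.48, 5.59, 8.05 and 5.11% of fibroblasts. Krt24, a keratin of epidermis, stood at 45.7, 17.3, 43.2 and 106 CPM. It was more abundant in suprabasal cells, at 350.5, 135, 305 and 663 CPM, in the same order. Gm10076 stood at 165, 164, 102 and 365 CPM in basal and 154, 149, 93.6 and 332 CPM in suprabasal cells, and Gm10260 at 379, 216, 204 and 464 CPM and 367, 209, 181 and 417 CPM. Prg4, Ccn3, Aqp1 and Dbp were the other higher genes. Without Scrublet doublets the ratios of Prg4 and Ccn3 were -0.65 and -0.44, and those of Ibsp and Spp1, among the lowest 8, were 1.02 and 2.48.

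Most immediate early and heat shock genes, which dissociation of tissue is known to induce, had a lower level at 12 dpa. The exception was Ier3, at 64.8, 78.8, 78.1 and 93.9 CPM. All 20 were measured, with medians of -1.07, -0.32 and -0.34 at 12, 17 and 28 dpa, and 10, 0 and 1 of 20 were 2-fold lower, the 1 being Fosb, and 0 higher. Over all tested genes 2.46%, 0.777% and 2.99% were lower, so the share at 28 dpa was near that of all genes. Fos stood at 273, 97.8, 237 and 232 CPM, Jun at 219.5, 80.9, 165 and 130.2 CPM, Egr1 at 154, 62.1, 117 and 92.2 CPM and the phosphatase gene Dusp1 at 109, 29.3, 71.5 and 64.0 CPM. In each the 12 dpa library was lowest. The chaperone gene Hspa1b stood at 214, 89.6, 126 and 130.2 CPM. Of the 10 calls at 12 dpa 9 stayed under the same 3 checks, all but that of Nr4a1. Without mixed barcodes the medians were -0.81 and -0.89 at 17 and 28 dpa. Fos then stood at 224, 55.9, 86.1 and 61.6 CPM, with the unamputated library the highest.

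Differentiation genes were close to their unamputated level in basal cells. Of 28 genes 20 reached 5 CPM, with medians of 0.10, -0.07 and -0.09, and 0 of 16, 15 and 15 were called in either direction. That is near the share of all tested genes, of which 0.527%, 0.89% and 1.41% were higher and 2.46%, 0.777% and 2.99% lower. Each of these medians changed sign under some alternatives. Single genes had unlike orders, and Krt1 and Krt10, given above, were highest at 12 dpa and lowest at 28 dpa. Krtdap, a keratinocyte differentiation peptide, stood at 1214, 1971, 1744 and 2114 CPM, Ly6d at 1413, 2151, 1978 and 2478 CPM and Lgals7, which encodes galectin-7, at 3533, 5275, 6014 and 6152 CPM, each lowest in the unamputated library. Klf4, a factor of barrier formation, stood at 255, 127, 246 and 231 CPM and was lowest at 12 dpa. Elovl4 and Cers3, which make barrier ceramides, stood at 15.2, 16.7, 10.7 and 5.77 CPM and 15.7, 12.3, 9.08 and 6.57 CPM. Loricrin and involucrin genes were near 0 in basal cells, at 2.33, 0.586, 6.33 and 1.76 CPM for Lor and 0.776, 1.76, 2.75 and 0.481 CPM for Ivl.

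Transcription factors and stem cell genes of the basal layer had medians of -0.41, -0.33 and -0.37, with 0 of 19 called higher and 2, 0 and 2 called lower, where 2.46%, 0.777% and 2.99% of all tested genes were. Tfap2b, an AP-2 factor, stood at 256, 89.4, 168 and 245 CPM and Id2, an inhibitor of differentiation factors, at 26.6, 5.86, 26.1 and 36.2 CPM, both lowest at 12 dpa. Id1 and Id3, targets of BMP signals, also had their lowest level there, at 50.2, 25.5, 62.5 and 74.2 CPM and 72.1, 38.7, 101 and 118 CPM. Sox6 stood at 539.8, 615, 379 and 257 CPM and Irx4 at 64.7, 59.5, 43.7 and 30.8 CPM, both lowest at 28 dpa. Krt15, a keratin of resting basal and bulge cells, stood at 869.8, 451, 1146 and 757 CPM. Its 12 dpa level was the lowest, and in thinned cells it was detected in 65.5% (61.4 to 69.5), 42.2% (35.7 to 48.8), 71.7% (66.0 to 76.9) and 50.6% (46.4 to 54.8). Centred on genes of like span, the 28 dpa ratio of Sox6 was -0.41, from -1.07, as the gene spans 567925 bases.

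The desmosome and adherens junction list had medians of -0.13, -0.26 and -0.29 over 19 genes, and 0 of 17, 16 and 16 were called in either direction, again near the shares of all genes just given for differentiation genes. Dsp, the desmosomal plakin, stood at 1339.6, 1047, 1166 and 1250.1 CPM and Perp at 1025, 857, 948 and 1056 CPM. Dsg3, the desmosomal cadherin of the basal layer, stood at 305, 273, 208 and 185 CPM. Centred by span, the 28 dpa median was 0.019.

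Most genes of the EGF receptor pathway had their highest level in the unamputated library. The list had medians of -0.89, -0.39 and -0.63 over 15 of 18 genes, with 4, 1 and 3 of 13 called lower and 0 higher, beside 2.46%, 0.777% and 2.99% of all tested genes. Tgfa was called in each, Nrg1 at 12 and 28 dpa, Hbegf and Spry2 at 12 dpa and Lrig1 at 28 dpa. Under the 3 checks by top cell, mixed barcodes and span, the calls of Hbegf and Spry2 stayed and the others did not. In the unamputated library 1 cell gave 27.0% of the Tgfa UMIs, and without it Tgfa stood at 17.1 CPM, under the limit of 20 CPM for a call. Centred by span, Nrg1 had log2 ratios of -0.97 at 12 dpa and -0.65 at 28 dpa, and Lrig1 one of -0.87 at 28 dpa. Nrg1, which encodes neuregulin 1, stood at 203, 83.8, 103 and 81.3 CPM, Hbegf at 44.9, 18.2, 38.2 and 25.6 CPM and Tgfa at 23.4, 10.8, 10.7 and 9.62 CPM. Areg and Epgn, at 17.5, 1.17, 0 and 2.56 CPM and 11.9, 1.17, 0.55 and 0 CPM, were mostly found in the unamputated library, where 1 cell gave 69.4% and 34.1% of their UMIs. The receptor gene Egfr stood at 355, 323, 309 and 236 CPM, and Lrig1, a brake on this receptor and a marker of quiet stem cells, at 113, 73.5, 98.8 and 44.1 CPM. Lrig1 was lowest at 28 dpa. The feedback inhibitor Spry2 stood at 26.8, 9.08, 15.96 and 17.0 CPM, lowest at 12 dpa.

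Wnt pathway genes had medians of -0.24, -0.29 and -0.53 over 29 of 37 genes, with 3, 0 and 5 called lower of 21, 21 and 19, and 0 higher, beside 2.46%, 0.777% and 2.99% lower over all tested genes. The most abundant ligand, Wnt4, stood at 296, 429.8, 257 and 276 CPM and Wnt10a at 64.0, 67.7, 51.5 and 72.0 CPM, both within 2-fold throughout. At 12 dpa Wnt5b, Fzd7 and Lgr5 were called, and at 28 dpa Wnt16, Fzd10, Lgr4, Lgr5 and Znrf3. Wnt16 stood at 22.0, 37.2, 39.9 and 9.14 CPM and was lowest at 28 dpa. The R-spondin receptor genes Lgr4, Lgr5 and Lgr6 stood at 198, 111, 129 and 89.3, at 111, 41.6, 55.6 and 44.2, and at 118, 84.7, 73.7 and 76.0 CPM. In each the unamputated level was the highest. Znrf3, which removes Wnt receptors from the cell surface, stood at 279, 253, 182 and 134 CPM. Axin2, a common target of the pathway, was level at 19.2, 24.6, 20.6 and 18.6 CPM. Lgr4, Lgr5 and Znrf3 are long genes, and centred by span their 28 dpa ratios were -0.61, -0.78 and -0.40, no longer past 2-fold. Fzd10 had a 28 dpa ratio of -0.99 without mixed barcodes. Under the 3 checks, the calls at 12 dpa and that of Wnt16 at 28 dpa stayed.

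TGF-beta and BMP genes had medians of -0.34, -0.30 and -0.40 over 26 genes, with 3, 2 and 5 of 23 called lower and 0 higher. The shares of all tested genes called lower were 2.46%, 0.777% and 2.99%. Fst, which encodes the activin antagonist follistatin, stood at 240.0, 97.6, 99.9 and 66.7 CPM and at 231, 91.6, 93.9 and 34.1 CPM without mixed barcodes, highest in the unamputated library. Inhba, the activin A subunit, stood at 38.1, 4.39, 17.6 and 14.6 CPM, where 1 cell gave 80.4% of the unamputated UMIs. Tgfb3 stood at 33.5, 25.8, 20.9 and 11.7 CPM, Ltbp1, which stores latent TGF-beta, at 131, 116, 81.4 and 56.4 CPM, and the activin receptor gene Acvr2a at 133, 86.1, 76.5 and 57.2 CPM, each lowest at 28 dpa. Under the 3 checks, the calls of Fst in each dpa library and of Tgfb3 at 28 dpa stayed, and Ltbp1 and Acvr2a had 28 dpa ratios of -0.55 and -0.73 when centred by span. Tgfbi stood at 266, 352, 207 and 201 CPM, highest at 12 dpa.

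In the lists that follow, counts of calls stand beside 0.527%, 0.89% and 1.41% of all tested genes called higher and 2.46%, 0.777% and 2.99% called lower. Interferon response genes had medians of 0.34, -0.32 and -0.32 over 20 of 27 genes, with 0 of 10 called in any comparison. H2-K1, a class I antigen presentation gene, stood at 144, 191, 97.7 and 85.4 CPM, highest at 12 dpa. Secreted factors had medians of -0.50, -0.21 and -0.20, with 5, 0 and 1 of 19 called lower. These were Pdgfc, Sema3e, Ccn2, Ccn1 and Kitl at 12 dpa and Ccn1 at 28 dpa. Ccn2 and Ccn1, matrix proteins induced by YAP signals, stood at 85.3, 27.5, 62.2 and 74.9 CPM and 57.3, 20.2, 39.1 and 22.9 CPM, and the melanocyte growth factor Kitl at 75.2, 22.6, 54.8 and 54.5 CPM, lowest at 12 dpa. Protease and migration genes had medians of -0.34, -0.05 and -0.03 over 40 genes. Of 32, 31 and 31 genes that could be called, 1, 3 and 2 were higher and 2, 0 and 3 lower. The higher ones were Timp1 in each library, Mmp13 at 17 dpa and Fn1 at 17 and 28 dpa, and the lower ones Serpine2 and Itgb8 at 12 dpa and Mmp13, Adam12 and Itgb6 at 28 dpa. Itgb6 and Itgb8, integrins that free TGF-beta, stood at 57.6, 34.0, 29.7 and 27.9 CPM and 59.7, 28.4, 36.0 and 31.6 CPM. Glycolysis and hypoxia genes had medians of -0.22, -0.26 and -0.29, with 1, 1 and 2 of 19 called lower and 0 higher, namely Ndrg1, Eno1, and Hk2 with Hif1a. Hif1a stood at 327, 326, 181 and 152 CPM, lower at 17 and 28 dpa. Cytokine genes were scarce, with 13 of 26 at 5 CPM and at most 4 callable. Cxcl1 and Ccl2 were higher at 28 dpa. Cxcl1, a neutrophil attractant, stood at 23.2, 18.7, 25.9 and 51.9 CPM. Genes of acral skin and appendages had medians of -0.27, -0.33 and -0.12 over 27 of 40 genes. Of 11, 12 and 12 genes that could be called, 2, 1 and 1 were lower and 0, 1 and 1 higher. Krt79 was lower at 12 and 17 dpa, Sox9 at 12 dpa and Barx2 at 28 dpa. Cd34 was higher at 17 and 28 dpa, with log2 ratios of 1.07 and 1.93, which were 0.16 and 0.82 without mixed barcodes. Barx2 stood at 211.7, 249, 163 and 89.6 CPM, lowest at 28 dpa, and Sox9 at 141, 53.0, 89.1 and 87.7 CPM, lowest at 12 dpa. Of the calls in these lists, those of the secreted factors, of Fn1 at 17 and 28 dpa, of Mmp13 and Eno1 as lower genes and of Sox9 stayed under the 3 checks, and the others did not.

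The basal keratinocytes were themselves mixed. Of thinned cells, 32.7% (28.8 to 36.7), 19.1% (14.3 to 24.8), 34.1% (28.5 to 39.9) and 23.6% (20.2 to 27.3) had at least 2 UMIs of Lgr5, Sox9 and Postn together. Lgr5 and Sox9 are genes of hair follicle and other appendage epithelium, and Postn is also abundant in fibroblasts. The cells are called appendage-leaning here for these genes alone, and the split was made after the data had been seen. Mixed barcodes made up 20.3% (14.7 to 26.9), 34.1% (20.5 to 49.9), 32.6% (23.4 to 43.0) and 34.1% (26.1 to 42.7) of the appendage-leaning cells, against 2.40, 2.69, 2.72 and 6.88% of the other basal cells. The summed level of Col1a1, Col1a2, Col3a1, Dcn and Lum was 5395, 5509, 7173 and 5667 CPM in the former and 259.7, 505, 833 and 1333 CPM in the latter. Without mixed barcodes it was 301, 724, 625 and 699 against 204, 459.7, 457 and 551 CPM, and the appendage-leaning share 28.4% (24.5 to 32.5), 13.8% (9.45 to 19.2), 26.3% (20.9 to 32.3) and 18.0% (14.7 to 21.7). Many cells lay near the division, with 59, 40, 40 and 58 cells at 1 such UMI and 39, 13, 18 and 31 at 2. The levels that follow are CPM of thinned cells, for appendage-leaning against other basal cells, and serve as description.

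Krt15, Krt17, Kitl, Nkain3 and Chrm3, named after their values had been seen, stood higher in the appendage-leaning cells of every library. Krt15 stood at 2014 against 629.9, 718 against 405, 1985 against 1086 and 1644 against 419 CPM. Krt17 stood at 1231 against 211, 1995 against 325, 924 against 157 and 1179 against 135 CPM. Without mixed barcodes these were 2422 against 636, 931 against 413, 2666 against 1098 and 2288 against 426 CPM for Krt15 and 1426 against 209.8, 2572 against 319, 1197 against 159 and 1353 against 119.7 CPM for Krt17. Kitl stood at 201 against 32.0, 90.9 against 11.8, 152 against 17.4 and 185 against 16.1 CPM and Nkain3 at 284 against 7.47, 36.4 against 2.15, 61.1 against 7.61 and 94.8 against 9.17 CPM. Chrm3 stood at 229 against 0, 27.3 against 0, 156 against 0 and 136 against 2.75 CPM, where a count of 0 in the other cells, again taken as under 3 counts, allows up to 1.60, 3.23 and 3.26 CPM. Without mixed barcodes the levels in appendage-leaning cells were lower for Kitl and Chrm3. Kitl then stood at 116 against 26.8, 62.1 against 12.2, 103 against 16.8 and 65.2 against 13.3 CPM, Nkain3 at 323 against 7.65, 34.5 against 2.21, 53.1 against 7.82 and 78.7 against 9.36 CPM and Chrm3 at 75.9 against 0, 6.90 against 0, 37.5 against 0 and 42.7 against 2.96 CPM, with 1 UMI behind the Chrm3 value of appendage-leaning cells at 12 dpa. Col17a1 differed little, at 1174 against 1086, 932 against 1041, 958 against 1066 and 996 against 1079 CPM.

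Several genes named above had higher levels in the remaining basal cells. Cstdc5 stood at 229.7 against 836, 523 against 2141, 152 against 735 and 4.44 against 54.1 CPM, so that the 12 dpa library was highest and the 28 dpa library lowest in each kind of cell. Fras1 stood at 94.5 against 596, 145 against 565, 35.8 against 284 and 37.0 against 331 CPM and Foxp2 at 22.0 against 221, 22.7 against 68.8, 14.7 against 95.7 and 31.1 against 208 CPM. Serpinb7 stood at 6.59 against 110.4, 0 against 8.60, 4.21 against 89.1 and 22.2 against 148 CPM, with the 12 dpa level the lowest in the other basal cells. In appendage-leaning cells the 0 at 12 dpa allows up to 13.6 CPM, so no order is drawn there. Krtdap stood at 454 against 1464, 768 against 1961, 941 against 1905 and 1124 against 2421 CPM and Tspear at 61.5 against 414, 341 against 1048, 58.9 against 288 and 60.7 against 121 CPM. Krt16 had no such direction, at 49.5 against 82.7, 450.0 against 84.9, 12.6 against 12.0 and 4.44 against 25.2 CPM. Without the cells that reached 2 such UMIs before thinning, the log2 ratio of Nkain3 was 0.088 at 17 dpa and 0.38 at 28 dpa, against -1.45 and -1.20 with them. The same step moved the 17 dpa log2 ratio of Mmp13 from 2.12 to -1.53. With only the mixed barcodes left out it was 0.07.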

How the data were processed

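Single cells were captured with 10x Chromium 3′ v3 chemistry, per the labels' protocols, and the submitters' processing notes name Cell Ranger 7.1.0 and the mm10 build. The authors deposited UMI counts per gene and barcode for each library as raw whole numbers, with 32285 genes. Whether intronic reads were counted is not given in the sources used here. Positions came from the GENCODE M21 annotation, which held 32158 of the gene identifiers, and promoter stretches from RefSeq (GRCm38.p6).

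The UMIs of the basal keratinocytes were summed per library and scaled to CPM. Log2 ratios used CPM + 1, and a gene was called past 2-fold when it had 20 CPM in the higher library of the pair. List medians used genes of at least 5 CPM in any library. Intervals are exact (Poisson for sums, Clopper-Pearson for shares, 95%). The limit given for a count of 0 is 3 counts of the total. Shares of cells with a UMI were taken after thinning each cell to 5000 UMIs, which left out 12, 4, 13 and 79 shallower cells in the order unamputated, 12, 17 and 28 dpa. Fibroblasts were the cells that passed a gate of 20 UMIs of Col1a1, Col1a2, Col3a1, Dcn and Lum together with fewer than 5 keratin UMIs. Doublets were scored with Scrublet and kept in the main values. Python 3.11.15, numpy 2.4.6, pandas 2.3.3, scipy 1.17.1, scanpy 1.11.5 and matplotlib 3.10.9 were used. On counts simulated for each comparison, with 200 genes changed among 6966, 6980 and 6949 tested, the calls recovered 99% at 12 and 17 dpa and 98.5% at 28 dpa, and no unchanged gene was called. Every planted change was past 2-fold and fell on a gene of at least 20 CPM, so these outcomes follow largely from the settings. The simulation holds counting error only, without the concentration of UMIs in few cells, and says nothing about differences between libraries.

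For each comparison the text names the 8 genes at either end of the log2 ratios, among those of at least 50 CPM. Genes of the rule, mitochondrial, haemoglobin, immunoglobulin and sex-specific genes, markers of other cell types and genes under 0.1 of their level in immune, fibroblast or endothelial cells were left out. Genes of that level past 2-fold in all 3 dpa libraries and listed genes of 50 CPM were also named. Other genes were named after their values had been seen. The members, the 15 gene lists and the 6 marker lists were chosen with earlier results of these data known. Mmp1a and Mx1 were not analysed here. Some listed genes that count toward the lists are not reported here by name. The alternatives varied the cell filter, doublets, marker threshold, depth, averaging, pseudocount, low-value filter, scaling and denominator. Others, chosen after seeing the data, left out mixed barcodes, appendage-leaning cells or the top cell per gene, or centred ratios by gene span.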

Additional observations from a re-analysis of the deposited data

Results flagged for a closer look

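Transcripts that tell the sexes apart lie outside the comparisons, and they set the 12 dpa library apart. Xist, the RNA of the inactive X chromosome, stood at 824 CPM in the basal keratinocytes of that library, against 0.194, 0.825 and 0 CPM in the unamputated, 17 dpa and 28 dpa libraries. Y-linked genes together stood at 0.293 CPM at 12 dpa, against 415, 269 and 272 CPM in the other libraries. The labels describe each library as a pool of males and females. With 1 library a group, a difference of sex and a difference of time cannot be told apart in any comparison with 12 dpa.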

How the results depend on the processing

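No paired analysis was possible because each group held 1 library. Of the results that answer a comparison, 191 values under an alternative stayed near the main value, 66 moved and 1 reversed. Of the values of single genes and further lists, 1159 stayed, 371 moved and 17 reversed. Reversed here means a change of sign of a gene past 2-fold or of a list median. A list median counted only where the medians of its genes' lower and upper counting limits lay on the same side of 0. For list medians these limits also set what counted as moved, and they are no interval of the median itself. Counted whatever their size, 8 of 156 values of the 4 main list medians, 21 of 468 of the further list medians and 16 of 1079 of single genes had the opposite sign. The causes were not tested. The planned use of cells without any stromal or immune UMI was not run, since it left 41, 2, 9 and 12 cells. The alternatives on mixed barcodes, appendage-leaning cells, the top cell and gene span were chosen after seeing the data. Values below are in the order 12, 17 and 28 dpa where no time is given.

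The basal share was 45.9%, 47.2%, 50.7% and 42.6% after thinning, with the unamputated library first. It was 4.76%, 3.37%, 3.36% and 5.57% of all filtered cells. With 5 basal UMIs required it was 50.8% at 17 dpa and 39.4% at 28 dpa, and with the stricter filter, which left 125, 62, 132 and 285 basal cells, 40.6% in the unamputated library and 40.0% at 12 dpa.

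Genes past 2-fold depended on filters most. With genes from 5 CPM on, 91, 143 and 201 were higher and 419, 166 and 393 lower. With the stricter cell filter 105 and 113 were higher at 12 and 17 dpa, and 956, 284 and 527 lower. Centred on all genes, 65, 103 and 189 were higher, and 30 and 99 lower at 17 and 28 dpa. Thinning gave 273, 114 and 351 lower. Without mixed barcodes 26 and 57 were higher at 17 and 28 dpa and 84 lower at 17 dpa. Without appendage-leaning cells 70 were higher at 12 dpa and 100 lower at 17 dpa. Centred by span, 61 were higher at 12 dpa and 88 lower at 28 dpa. A pseudocount of 5 gave 22 higher at 12 dpa, and removal of Scrublet doublets 66 higher at 28 dpa.

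The anchoring median was -0.094 at 12 dpa and -0.048 at 28 dpa when centred on all genes, -0.11 at 12 dpa without appendage-leaning cells, and -0.0048 and 0.078 at 17 and 28 dpa by span. The desmosome median by span was 0.019 at 28 dpa. The wound median was -0.43 and -0.62 at 17 and 28 dpa after thinning, -0.51 and -0.61 as a mean of cells, -1.11 at 12 dpa without appendage-leaning cells, and at 28 dpa -0.74 when centred and -1.89 with the stricter filter. The differentiation median was 0.20 at 17 dpa after thinning and 0.11 when centred. It was -0.14 and -0.30 at 12 and 28 dpa with the stricter filter, -0.14 and -0.22 without appendage-leaning cells, and -0.23 at 28 dpa by span. At 28 dpa it was 0.012 after thinning, 0.029 with the other low-value filter and 0.14 when centred on all genes. The immediate early median at 17 and 28 dpa was -0.60 and -0.58 without Scrublet doublets, -0.81 and -0.89 without mixed barcodes and -0.13 and -0.11 when centred. It was -0.12 at 17 dpa with the stricter filter and -0.65 at 28 dpa by span.

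Medians of the cytokine list at 12 dpa, the interferon list at 17 dpa, the protease list at 17 and 28 dpa, the desmosome and Wnt lists at 12 dpa, and the secreted and acral lists at 28 dpa also crossed 0 under 1 or more alternatives. Single genes named for the ends of the log2 ratios or for all 3 dpa libraries changed sign in these cases. Without appendage-leaning cells, the log2 ratio was 0.82 for Chrm3 at 12 dpa, where both levels were near 0. It was -1.53 for Mmp13, -0.11 for Tm4sf1 and 0.088 for Nkain3 at 17 dpa, and 0.38 for Nkain3 at 28 dpa. Between 17 and 28 dpa it was then 0.21 for Spp1, 1.51 for Igf1 and 1.34 for Timp1. Without mixed barcodes it was -0.15 for Prg4 at 12 dpa and, between 17 and 28 dpa, 0.99 for Spp1, 0.20 for Igf1 and 0.64 for Timp1. Without Scrublet doublets it was, between 17 and 28 dpa, -0.65 for Prg4, -0.44 for Ccn3, 1.02 for Ibsp and 2.48 for Spp1. Among called genes of the lists, Inhba had a log2 ratio of 0.57 at 28 dpa, against -1.33, without the top cell of each library. The depth limits genes of few counts, and 3 counts are 0.291 CPM in the unamputated and 0.879 CPM in the 12 dpa library.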
